A study of Danio rerio with 9 samples.

Results

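The transcripts described here were abundant in both zebrafish hearts and near or at 0 in adult muscle. A transcript was included when its FPKM value was above 10 in each of 3 embryonic heart and 3 adult heart samples and below 0.5 in each of 3 adult muscle samples. FPKM counts sequenced fragments relative to transcript length and to the reads mapped in the sample, so levels of different transcripts are compared per length. Of 103079 assembled transcripts, 69 met these limits, and the 1 long intergenic noncoding RNA (lincRNA) on the study's heart lists among them, TCONS_00000540, was left out. The remaining 68 members were 2.62% of the 2592 transcripts above 10 FPKM in every heart sample that were not listed lincRNAs. The other 2524 of these, with 0.5 FPKM or more in at least 1 muscle sample, served as the comparison set. The members were thus chosen by their FPKM values in heart and muscle, so the contrast of heart with muscle is described and not tested. The rule set a floor in both hearts but no direction between them, and the contrast of adult with embryonic heart was tested.

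All fish were wild type, of the WIK line, and no group was treated. Embryonic hearts were taken at 4 days, adult hearts at 6 months, and muscle from adult fish of an age the labels do not give in months. Each group had 3 samples, numbered 0, 1, and 2, and values below are given in that order. The study calls the samples biological replicates, but the sources used here do not say how many animals a sample pooled, so p-values measure only the spread between these samples. Fewer cells of a type and less RNA per cell cannot be told apart in such bulk tissue.

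Cardiac and skeletal muscle are both striated and contract with the same kinds of sarcomere proteins, yet many of these proteins have separate genes or splice forms for heart and for skeletal fibers. A heart also holds cells that muscle lacks, such as endocardium, epicardium, valve cells, and the pacemaker and conduction system. At the embryonic stage sampled the zebrafish heart is already beating and has an atrium and a ventricle. The ventricular wall gains its thick trabeculae and its coronary vessels later. Transcripts of either kind could fall under the rule. The values carry identifiers of the transcript assembly (TCONS numbers) and no gene names, so no member is given a gene name, a role, or a cell type here, and the labelled tissues could not be checked against their marker genes. An identifier stands for 1 assembled transcript form, and several forms can belong to 1 gene.

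The number of reads per sample was not part of the values. From the step size between low FPKM values, 1 fragment on a transcript of 1 kb was estimated to be worth 0.0334 to 0.0423 FPKM in embryonic heart, 0.0256 to 0.0389 FPKM in adult heart, and 0.0358 to 0.0477 FPKM in adult muscle. On this estimate the muscle limit of 0.5 FPKM corresponded to 10.5 to 13.95 fragments on such a transcript, and the heart limit of 10 FPKM to 236 to 391 fragments. An exact 0 was not proof of absence. Of 338 transcripts above 1000 FPKM in some sample, 94 were listed at 0 in another sample of the same tissue type.

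The members covered a wide range of levels. Mean FPKM over the 6 heart samples ran from 12.9 to 10008.5, with a median of 52.7 against 36.5 in the comparison set. Of the 68 members, 5 had a mean above 1000 FPKM, 11 lay between 100 and 1000, and 52 were at or below 100. Among all transcripts, 4 members ranked in the 100 highest of adult heart and 2 in the 100 highest of embryonic heart, while 27 and 23 members, respectively, ranked in the highest 1000. The median member was at 31.9 FPKM in embryonic heart and 53.2 FPKM in adult heart. Across the members, which are not independent replicates, the order of levels in the hearts was partly shared (Spearman's rho = 0.546, n = 68).

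**Figure D1:**
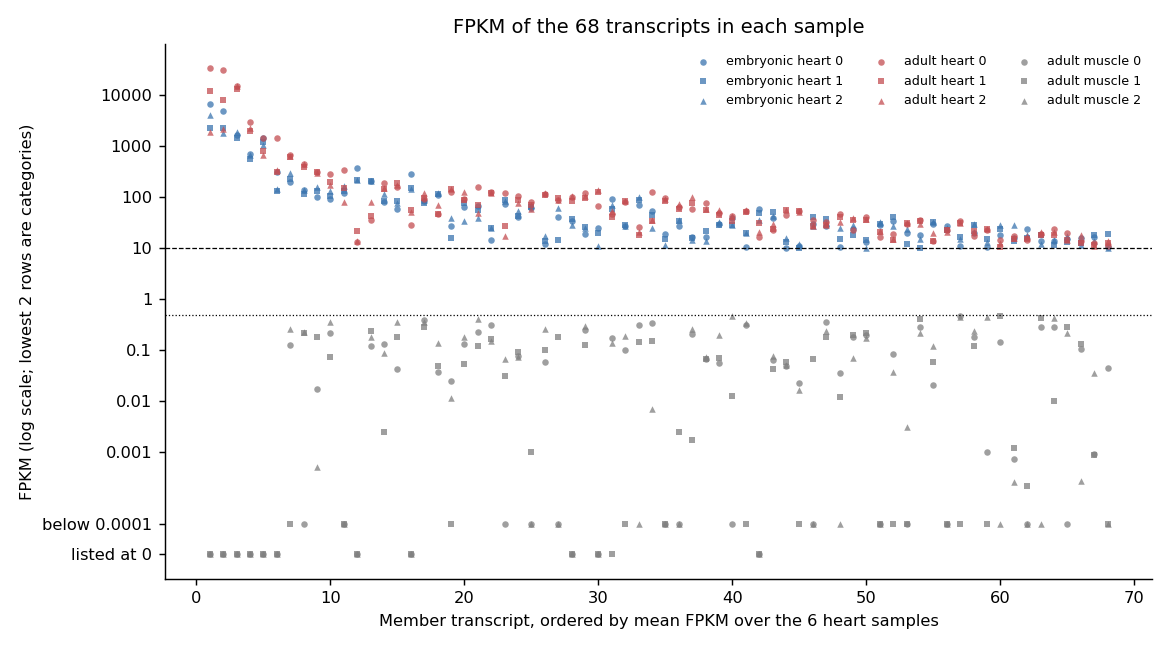
FPKM of each of the 68 members in each of the 9 samples on a log axis, with members ordered by their mean over the 6 heart samples, blue for embryonic heart, red for adult heart, grey for adult muscle, and a marker shape for each sample number. Values of 0 and values below 0.0001 are drawn as categories at the bottom, and the lines mark the limits of 10 FPKM (dashed) and 0.5 FPKM (dotted); all 6 of the members on the far left are listed at 0 in every muscle sample.

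The 5 members with the highest heart levels were listed at 0 in all 3 muscle samples. TCONS_00094580 had the highest mean. Its values were 6558, 2295, and 4044 FPKM in embryonic heart and 33300.1, 11982, and 1872 FPKM in adult heart. The adult samples thus spanned 17.8-fold, the lowest of them lay below every embryonic sample, and the groups overlapped. TCONS_00010996 was at 4767, 2223, and 1768 FPKM in embryonic heart and at 31301, 8093, and 2195 FPKM in adult heart. It showed the same order of adult samples, a 14.3-fold span, and again overlapping groups. For TCONS_00094580 the log2 fold change of adult over embryonic heart was 1.21 (SE 1.03, limma adjusted p = 0.439), and for TCONS_00010996 it was 1.63 (SE 0.95, limma adjusted p = 0.271), so neither difference passed the test.

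TCONS_00030513 varied less among adult hearts than the other 4. It was at 1613, 1409, and 1849.9 FPKM in embryonic heart and at 14961, 13029, and 14973 FPKM in adult heart, with no overlap. Its coefficient of variation was 13.6% among embryonic hearts and 7.81% among adult hearts. TCONS_00083836 also separated the hearts, at 707, 551, and 655 FPKM in embryonic and 2893, 2003, and 2286 FPKM in adult heart. TCONS_00042712 did not, at 1422, 1201, and 1032 FPKM in embryonic and 1433, 799, and 671 FPKM in adult heart. With muscle listed at 0 in each library, no fold of heart over muscle was formed for these members.

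Another 6 members were listed at 0 in all muscle samples, which made 11 in all. They are named here after their values were seen. TCONS_00042714, 2 identifiers after TCONS_00042712, was at 311, 132, and 145 FPKM in embryonic heart and 1464, 311, and 339 FPKM in adult heart. TCONS_00034124 and TCONS_00026825 were embryonic-high, with means of 267 and 194 FPKM in embryonic heart and 16.4 and 44.9 FPKM in adult heart. TCONS_00065726 and TCONS_00016635 were adult-high, with means of 96.2 and 108 FPKM in adult heart against 33.0 and 18.7 FPKM in embryonic heart. The lowest of the 11 was TCONS_00073671, with a mean of 47.4 FPKM in embryonic and 22.7 FPKM in adult heart. The median heart mean was 450 FPKM for the members at 0 in all muscle samples and 40.0 FPKM for the other 57, none of which exceeded 442 FPKM.

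For the other 57 members, muscle values were low but seldom 0: 56 had no exact 0, and TCONS_00068424 was at 0 in muscle 1 only. Some non-zero values were far below the worth of a fragment. TCONS_00036943, named after its values were seen, was at 2.06e-22, 3.53e-30, and 1.49e-23 FPKM in muscle. Over all transcripts and samples, 22.1% of the non-zero values were below 1e-06 FPKM. An exact 0 is not read here as a lower level than such values. The highest muscle sample was below 0.01 FPKM in 9 of these 57, between 0.01 and 0.1 FPKM in 12, and at 0.1 FPKM or more in 36. Only 8 members passed 0.4 FPKM in any muscle sample, and 9 were above 0.1 FPKM in all 3. Read against the estimated worth of a fragment on 1 kb, 23 of the 68 members, those at 0 included, lay below it in every muscle sample and 20 lay above it in every one. Each member's transcript length, which sets the true number of fragments, was not used here.

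The members closest to the heart limit were TCONS_00080450, TCONS_00102283, and TCONS_00015014, whose lowest heart samples were at 10.1, 10.2, and 10.2 FPKM. Just outside it were TCONS_00061002, TCONS_00034722, and TCONS_00037257, at 9.63, 9.35, and 9.28 FPKM. Closest to the muscle limit were TCONS_00006648, TCONS_00098185, and TCONS_00048396, whose highest muscle samples were at 0.473, 0.471, and 0.461 FPKM. Just beyond it lay TCONS_00051544, TCONS_00096656, and TCONS_00036374, at 0.526, 0.546, and 0.585 FPKM. Neither limit fell in a gap of the values. TCONS_00096656, for example, had a heart mean of 217 FPKM and missed the rule through 1 muscle value.

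The adult and embryonic hearts were then compared, with limma on log2(FPKM + 0.1) over 62279 transcripts and calls where the ratio of means exceeded 2 and the adjusted p was below 0.05. Of the 68 members, 24 were higher in adult heart, 8 were higher in embryonic heart, and 36 were not called. Of all transcripts tested, 10.7% were called higher in adult heart, 7.15% higher in embryonic heart, and 17.9% in either direction. In the comparison set, which had the same floor in the hearts, 365 transcripts (14.5%) were called in the adult direction and 239 (9.47%) in the embryonic direction. The share of members called was 35.3% in the adult direction and 11.8% in the embryonic direction. Each transcript was counted separately in all of these sets. Of the members, 27 lay within 5 identifiers of another, in 13 groups that may be forms of the same gene. No test was made of these shares against each other.

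In the adult direction the samples themselves ranked the sets as the calls did, with the members first. In the embryonic direction they did not, and the comparison set came first. All 3 adult samples lay above all 3 embryonic samples for 34 members (50%), against 25.5% of all transcripts tested and 32.7% of the comparison set. All embryonic samples lay above all adult ones for 13 members (19.1%), against 16.3% of all transcripts tested and 28.1% of the comparison set. The groups overlapped for 21 of the 68 members, against 36272 of the 62279 transcripts tested and 989 of the 2524 in the comparison set. They overlapped for none of the 32 members called. The conditions of a call leave little room for overlap with 3 samples per heart, so this adds no support. The median log2 fold change was 0.74 over the members, 0.02 over the comparison set, and 0.25 over all transcripts tested, with 46 members above 0 and 22 below. Quantile normalization of the heart samples lowered the median of all transcripts by 0.25 and that of the members to 0.45. The calls then used p-values from that scaling, but the ratio of means was still taken from the unscaled FPKM. On this mix 21 members were called in the adult and 8 in the embryonic direction. Over all transcripts 5302 and 5200 were called, in place of 6667 and 4450.

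**Figure D2:**
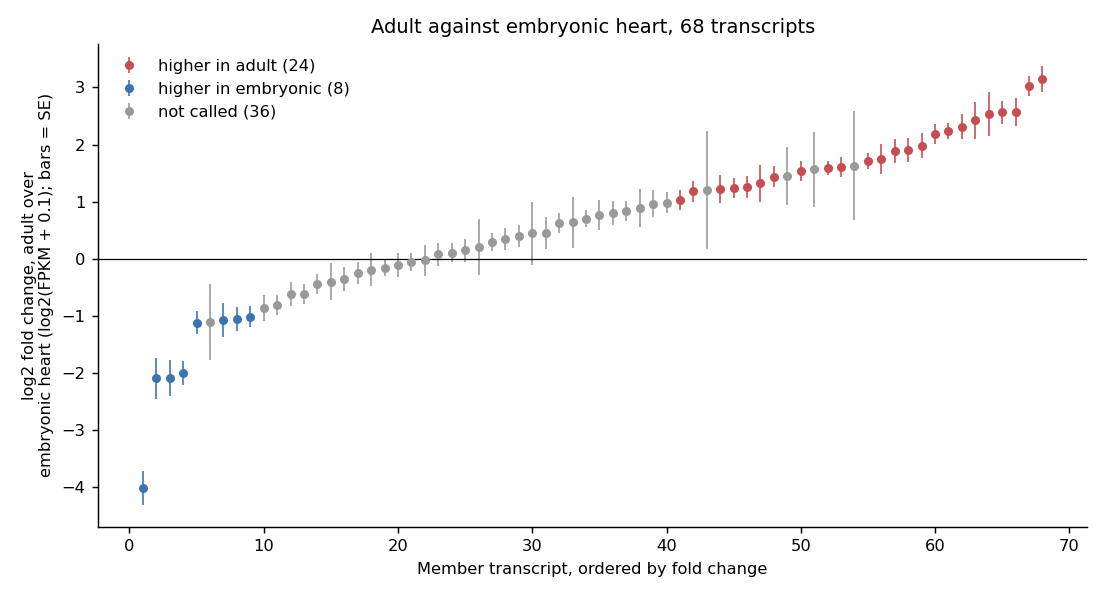
Log2 fold change of adult over embryonic heart for each of the 68 members, ordered by size, with bars for the standard error and colors for the call (3 samples per heart). The 24 members called higher in adult heart lie between 1.03 and 3.15, the 8 called higher in embryonic heart between -4.01 and -1.01, and the longest bars belong to members that were not called.

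The 24 members called higher in adult heart were 2.03 to 8.82 times higher, with a median of 3.48 times. The largest change was that of TCONS_00030513, the abundant transcript given above, with a log2 fold change of 3.15 (SE 0.23, limma adjusted p = 0.000543). This call was lost when transcripts of any level were tested, 95122 in all (limma adjusted p = 0.18), and held under the other alternatives, at adjusted p-values of 4.67e-06 to 0.00757. TCONS_00007657 was at 11.99, 13.8, and 17.1 FPKM in embryonic heart and at 113, 110.5, and 123 FPKM in adult heart. Its lowest adult sample was thus more than 6 times its highest embryonic sample, and its log2 fold change was 3.02 (SE 0.17, limma adjusted p = 0.000237). The muscle samples of TCONS_00007657 were at 0.0602, 0.0991, and 0.256 FPKM.

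TCONS_00027040 was at 14.2, 25.3, and 24.3 FPKM in embryonic heart and at 125, 122, and 122 FPKM in adult heart, a log2 fold change of 2.57 (SE 0.24, limma adjusted p = 0.00134). The adult samples of TCONS_00027040 were the most alike of any member, with a coefficient of variation of 1.27%. TCONS_00034012 was at 18.9, 15.4, and 11.8 FPKM in embryonic heart and at 93.8, 82.2, and 92.9 FPKM in adult heart, a log2 fold change of 2.56 (SE 0.20, limma adjusted p = 0.000749). Its muscle values were all under 0.0001 FPKM. TCONS_00016635, at 0 in muscle, was at 24.96, 19.9, and 11.1 FPKM in embryonic heart and at 66.1, 123, and 135 FPKM in adult heart. Both of its groups varied more, and its log2 fold change of 2.54 had an SE of 0.39 (limma adjusted p = 0.00759).

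The 8 members called higher in embryonic heart were 2.003 to 16.3 times higher there, with a median of 3.04 times. TCONS_00034124 changed most of all members. It was at 370.4, 218, and 213 FPKM in embryonic heart, at 13.5, 22.1, and 13.6 FPKM in adult heart, and at 0 in each muscle sample. Its log2 fold change was -4.01 (SE 0.30, limma adjusted p = 0.000587), and its adult level lay just above the floor of the rule. TCONS_00026825 was at 287, 151, and 146 FPKM in embryonic heart and at 28.5, 56.3, and 49.97 FPKM in adult heart. Embryonic heart 0 was the highest sample of both transcripts. The log2 fold change of TCONS_00026825 was -2.10 (SE 0.36, limma adjusted p = 0.0113).

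TCONS_00006329 was nearly constant in embryonic heart, at 204, 211, and 210.1 FPKM, and stood at 34.9, 41.8, and 81.6 FPKM in adult heart. Adult heart 2 was close to 2 times the others, the groups did not overlap, and the log2 fold change was -2.08 (SE 0.31, limma adjusted p = 0.00722). TCONS_00037859 was at 70.4, 87.2, and 102 FPKM in embryonic and 26.3, 18.4, and 20.3 FPKM in adult heart, a log2 fold change of -1.99 (SE 0.21, limma adjusted p = 0.002). TCONS_00059538 was at 110.3, 116, and 120.1 FPKM in embryonic and 46.0, 45.8, and 70.5 FPKM in adult heart, a log2 fold change of -1.12 (SE 0.20, limma adjusted p = 0.013). The remaining embryonic-high members, TCONS_00059537, TCONS_00073671, and TCONS_00100805, had log2 fold changes between -1.01 and -1.07. These members lay close to the ratio of 2. TCONS_00059537, TCONS_00059538, TCONS_00073671, and TCONS_00100805 each lost the call in more than 1 of the fits that left out a library. Without embryonic heart 1, TCONS_00059537 failed on the ratio of adult to embryonic mean (0.511, limma adjusted p = 0.0455). TCONS_00073671 there failed on the adjusted p (ratio 0.492, limma adjusted p = 0.116). Fits without embryonic heart 1 and without adult heart 1 left 5 embryonic-high members each. Over all transcripts, leaving out a library gave 2471 to 4471 embryonic-high calls, in place of 4450. Of the 24 adult-high calls, 21 held without any 1 of the 6 libraries, and TCONS_00034723, TCONS_00036376, and TCONS_00066309 were the exceptions.

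The 36 members that were not called fell into different kinds. In 8 of them the adjusted p was below 0.05 and the ratio was under 2, and in 4 the adult mean was more than 2 times the embryonic mean and the adjusted p missed 0.05. The fold changes nearest to 0 were those of TCONS_00011968, TCONS_00032973, and TCONS_00071956. TCONS_00011968 was at 10.6, 19.1, and 10.2 FPKM in embryonic and 11.1, 12.6, and 13.9 FPKM in adult heart, with a log2 fold change of -0.03 (SE 0.28). TCONS_00032973 was at 27.6, 36.7, and 30.7 FPKM in embryonic and 33.0, 28.9, and 29.0 FPKM in adult heart, with a log2 fold change of -0.06 (SE 0.16). TCONS_00071956 was at 14.9, 13.3, and 17.1 FPKM in embryonic and 19.9, 14.1, and 14.2 FPKM in adult heart, with a log2 fold change of 0.08 (SE 0.20). Samples of both hearts were interleaved in all 3, and the sign of each of these small values changed when single libraries were left out.

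Adult heart 0 stood apart for some members. Its value was more than 2 times both other adult hearts for 7 of the 68 members (10.3%) and for 54 of the 2524 transcripts of the comparison set (2.14%). Adult hearts 1 and 2 stood above both others in this way for 0 members. The 7 were TCONS_00094580, TCONS_00010996, TCONS_00042714, TCONS_00096655, TCONS_00072626, TCONS_00072627, and TCONS_00000543, and they were chosen after their values were seen. In TCONS_00094580 and TCONS_00010996, adult heart 2 was also below 0.5 times both other adult hearts. This held for 2 members (2.94%) and for 35 transcripts of the comparison set (1.39%). TCONS_00096655 was at 335, 150.0, and 80.3 FPKM in adult heart and at 118, 134, and 165 FPKM in embryonic heart. TCONS_00000543 was at 119, 27.3, and 17.4 FPKM in adult heart and at 74.7, 89.1, and 83.9 FPKM in embryonic heart. In TCONS_00010996 and TCONS_00042714, embryonic heart 0 was also more than 2 times both other embryonic samples.

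None of these 7 was called in the comparison of the hearts, although TCONS_00042714 was called higher in adult heart with the replicate block (limma adjusted p = 0.0296). A sample set apart raises the SE, which ran from 0.447 to 1.03 in these 7 against a median of 0.208 over the members. Their selection thus left little room for a call, and nothing is read from its absence. Without adult heart 0, TCONS_00000543 was called higher in embryonic heart, with its log2 fold change moving from -1.10 (SE 0.67, limma adjusted p = 0.287) to -1.91 (limma adjusted p = 0.0131). The log2 fold changes of TCONS_00094580 and TCONS_00010996 fell to 0.27 and 0.67 without adult heart 0 (limma adjusted p = 0.855 and 0.546), and that of TCONS_00042714 moved from 1.56 to 0.84 (limma adjusted p = 0.15 and 0.236). That of TCONS_00096655, not called either way, turned from 0.21 to -0.33, and that of TCONS_00072627 from 0.45 to -0.15. Over all members, 22 were adult-high and 6 embryonic-high without that library. Fits that each left out 1 heart library gave 3490 to 5926 adult-high and 2471 to 4471 embryonic-high calls over all transcripts. No share of members is therefore read from this fit alone. Adult heart 0 also had the highest estimated FPKM per fragment of the adult hearts, at 0.0389 against 0.0310 and 0.0256, and the part of this in the 7 transcripts was not tested. Over the 68 members the median coefficient of variation was 13.7% in adult heart and 19.5% in embryonic heart, against 13.3% and 14.4% in the comparison set.

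**Figure D3:**
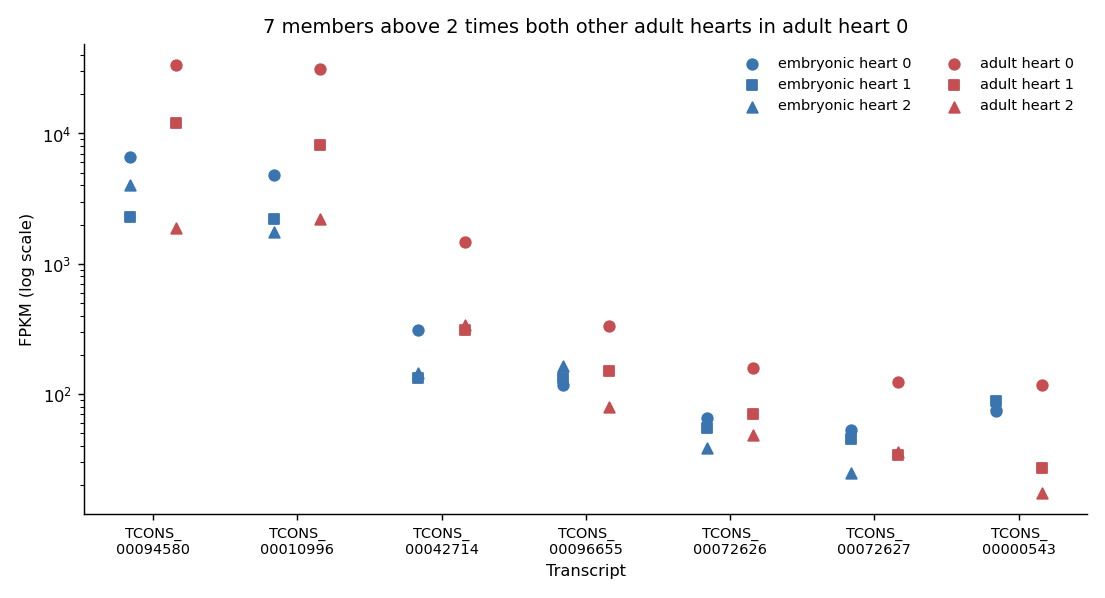
FPKM on a log axis of the 7 members in which adult heart 0 was more than 2 times both other adult hearts, with 3 embryonic (blue) and 3 adult (red) samples each and a marker shape for each sample number. The circle of adult heart 0 lies above the square and triangle of adult hearts 1 and 2 in every transcript, by 2.23-fold to 4.34-fold over the nearer one.

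The few highest members carried most of the summed level. The members together made up 0.974% to 2.84% of the summed FPKM of an adult heart sample, 0.0668% to 0.415% of an embryonic heart sample, and 0.000168% to 0.00017% of a muscle sample. These shares rest on sums in which the 10 highest transcripts of a sample, which held 2 members in adult heart 0 and no member in the other samples, took 64.2% to 95.3%. The median member, which does not depend on such sums, was at 29.3 to 31.6 FPKM in the embryonic hearts and at 48.8 to 54.1 FPKM in the adult hearts.

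Identifiers in the assembly were numbered along the genome, so members with neighbouring numbers may be forms of the same gene, which the files do not say. There were 10 pairs of members with consecutive identifiers, and no run was longer than 2. Within 5 identifiers of each other lay 27 members in 13 groups, and the other 41 stood alone. Where forms share fragments, the estimate divides these among them, so values of members with close identifiers may not be independent of each other.

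The log2 ratios of a consecutive pair had the same sign in 9 of 10 pairs, against 73.7% of the 262 pairs of consecutive identifiers in the comparison set. Fold changes were above 0 for 67.6% of members and 51.1% of the comparison set, which by itself makes shared signs more frequent among members. With 10 pairs, no difference between the sets is read from this. Both members were called in 4 pairs, 1 member in 1, and none in 5. Without adult heart 0 the fitted fold changes also shared a sign in 9 pairs, but not the same ones: TCONS_00072626 and TCONS_00072627 parted, at 0.16 and -0.15, and TCONS_00011968 turned to 0.06, the sign of TCONS_00011969. The log2 ratios of adult to embryonic mean within a pair differed by a median of 0.20 and at most 0.62. TCONS_00091135 and TCONS_00091136 differed 5.03-fold in level. TCONS_00091135 was at 27.0, 28.3, and 27.6 FPKM in embryonic heart and at 81.2, 83.1, and 83.9 FPKM in adult heart. TCONS_00091136 was at 136, 116, and 138 FPKM in embryonic heart and at 441, 393, and 441 FPKM in adult heart. Their log2 fold changes were 1.58 (SE 0.12, limma adjusted p = 0.000689) and 1.71 (SE 0.15, limma adjusted p = 0.000956).

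TCONS_00027039 and TCONS_00027040 were alike in level as well as in change, and TCONS_00027039 was at 19.0, 25.7, and 25.04 FPKM in embryonic heart and at 119, 94.5, and 103 FPKM in adult heart (log2 fold change 2.18, SE 0.18, limma adjusted p = 0.000857). TCONS_00034723 and TCONS_00034724 were both called higher in adult heart, at log2 fold changes of 1.32 and 1.88 (limma adjusted p = 0.035 and 0.00276). The call of TCONS_00034723 was lost with the replicate block (limma adjusted p = 0.0824) and in fits that left out a library. TCONS_00059537 and TCONS_00059538 were both called in the embryonic direction, and both lost the call in fits that left out a library. TCONS_00031624 and TCONS_00031625 were lower in adult than in embryonic heart in every sample, but their log2 fold changes of -0.62 and -0.81 corresponded to ratios under 2 and they were not called. TCONS_00049548 and TCONS_00049549 were just under the ratio of 2 in the adult direction, at log2 fold changes of 0.98 and 0.97.

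The remaining consecutive pairs were weaker or mixed. In TCONS_00061260 and TCONS_00061261 the log2 fold changes were 1.45 (SE 0.50, limma adjusted p = 0.0959) and 1.44 (SE 0.19, limma adjusted p = 0.00434), a pair alike in size of which only the second was called. TCONS_00068423 and TCONS_00068424 had values of -0.25 and -0.62, and TCONS_00072626 and TCONS_00072627 values of 0.64 and 0.45, with none of the 4 called. TCONS_00011968 and TCONS_00011969 had opposite signs, at -0.03 and 0.45, and neither was called. Among pairs further apart, TCONS_00042712 and TCONS_00042714 differed most, with log2 ratios of means of -0.33 and 1.85.

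**Figure D4:**
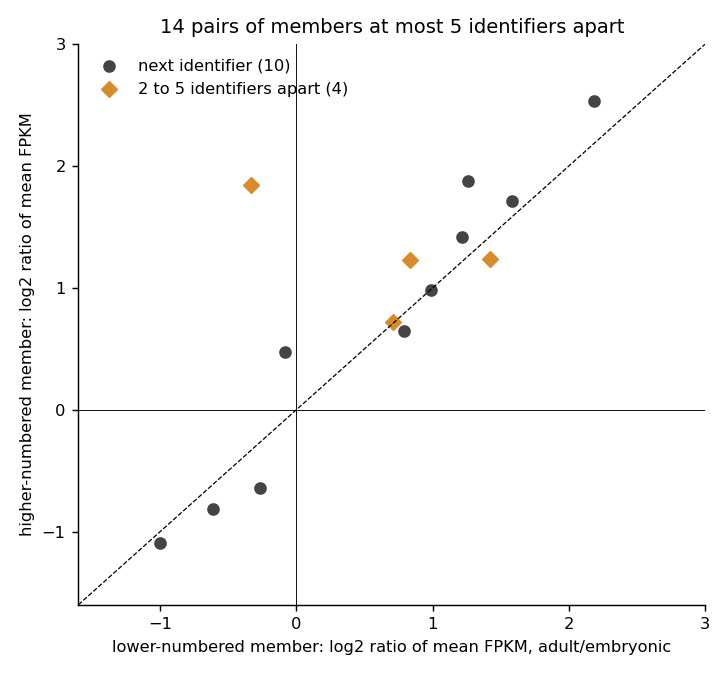
Log2 ratio of mean FPKM in adult over embryonic heart for the 14 pairs of members at most 5 identifiers apart, the lower-numbered member on the horizontal and the higher-numbered one on the vertical axis, with the dashed line marking equal values. In 12 of the 14 pairs both ratios have the same sign, and the pair far above the line is TCONS_00042712 with TCONS_00042714.

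Some members stood beside transcripts that were also high in the hearts and passed 0.5 FPKM in muscle or missed the heart limit. These neighbours were chosen after their values were seen. Around TCONS_00061260, TCONS_00061261, and TCONS_00061266, the identifiers TCONS_00061263, TCONS_00061264, and TCONS_00061265 had means of 646, 413, and 157 FPKM in embryonic heart and 1983, 510.1, and 169 FPKM in adult heart. Their highest muscle samples were at 1.52, 0.944, and 1.01 FPKM. All 6 of these transcripts were thus more than 100 times higher in the lowest heart sample than in muscle except TCONS_00061260, whose lowest heart sample was 14.4 FPKM against 0.186 FPKM in muscle 1. TCONS_00061262, in their midst, was below 0.01 FPKM in every heart sample.

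TCONS_00034723 and TCONS_00034724 lay between TCONS_00034722, which missed the heart limit, and TCONS_00034725, which was far higher. TCONS_00034725 was at 175, 222, and 198 FPKM in embryonic heart, at 928, 755, and 819.5 FPKM in adult heart, and at 1.97, 4.15, and 3.55 FPKM in muscle. Next to TCONS_00096655 were TCONS_00096656, just outside the muscle limit, and TCONS_00096657, with means of 1027 FPKM in embryonic heart and 1740.3 FPKM in adult heart and muscle values of up to 2.15 FPKM. In all, 5 members had a non-member within 5 identifiers that was above 10 FPKM in every heart sample and met a further condition. Its lowest heart sample was more than 100 times its highest muscle sample. The 5 were TCONS_00061260, TCONS_00061261, TCONS_00061266, TCONS_00096655, and TCONS_00021372, the last named after its values were seen. TCONS_00034723 and TCONS_00034724 were not among them.

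**Figure D5:**
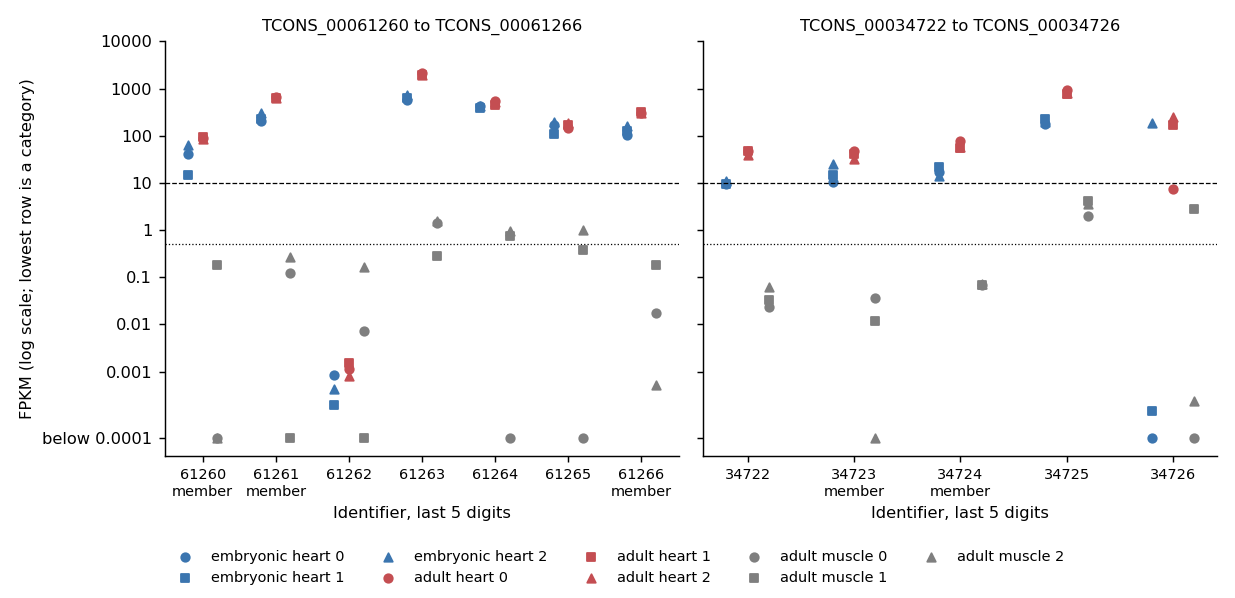
FPKM on a log axis of consecutive identifiers around 3 members (left) and 2 members (right), in 3 samples each of embryonic heart (blue), adult heart (red), and adult muscle (grey), with the limits of 10 FPKM (dashed) and 0.5 FPKM (dotted) and values below 0.0001 drawn as a category. The neighbours TCONS_00061263 and TCONS_00034725 are the highest of each panel in the hearts and pass 0.5 FPKM in muscle.

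Other members stood beside transcripts that were abundant in muscle. For 9 members an adjacent identifier was above 10 FPKM in every muscle sample. The largest contrast was at TCONS_00073671, listed at 0 in muscle, with 57.6, 49.5, and 35.0 FPKM in embryonic and 16.8, 31.0, and 20.4 FPKM in adult heart. The next identifier, TCONS_00073672, was at 13335, 32878, and 19227 FPKM in muscle, at 532, 273, and 527 FPKM in embryonic heart, and at 3.34, 14.7, and 5.63 FPKM in adult heart. TCONS_00064391 had means of 27.2 FPKM in embryonic and 137 FPKM in adult heart and at most 0.0253 FPKM in muscle, while TCONS_00064390 before it had a muscle mean of 555 FPKM and heart means of 162 and 157 FPKM. TCONS_00065726, at 0 in muscle, followed TCONS_00065725, which had means of 38.5 FPKM in muscle, 25.7 FPKM in embryonic heart, and 12.6 FPKM in adult heart. Whether such neighbours are forms of 1 gene, between which the estimate divides the fragments, was not tested.

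The highest member had a neighbour of another kind. TCONS_00094583, 3 identifiers after TCONS_00094580, was at 0, 23099, and 0 FPKM in embryonic heart and at 15961, 217264, and 79026 FPKM in adult heart, and it was listed at 0 in all muscle samples. It was therefore outside the rule through 2 embryonic samples at 0. Among the 113 different non-member neighbours directly beside members, 78 had a muscle mean below 0.5 FPKM, 57 had a heart mean below 1 FPKM, and 29 had a heart mean above 10 FPKM.

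The approximate place of a member in Zv9, the zebrafish assembly used by the authors, was read from the nearest listed lincRNAs with lower and higher identifiers. When each lincRNA was left out in turn, all 711 that could be placed fell on the right chromosome or scaffold, and 636 of 637 fell inside their bracket. Of the 68 members, 62 could be placed on 20 of 25 chromosomes and 6 could not. Only 56 had bracketing lincRNAs in ascending order, and the check of brackets was made on such brackets only. For the other placed members the chromosome alone was read. Chromosomes 7, 17, and 23 held 5 members each, and chromosomes 3, 11, and 18 held 4 each. Close identifiers were counted separately. Those on chromosome 23 were TCONS_00059537 with TCONS_00059538, and TCONS_00061260 with TCONS_00061261 and TCONS_00061266. On chromosome 11 they were TCONS_00011968 with TCONS_00011969, and TCONS_00013381 with TCONS_00013383. The counts were not set against all transcripts of a chromosome, so no concentration is read from them. TCONS_00030513 lay on chromosome 16 between positions 16481804 and 22399884, TCONS_00083836 on chromosome 5 between 30193962 and 43891099, and TCONS_00042712 with TCONS_00042714 on chromosome 19 between 48688611 and 50170344. TCONS_00094580 lay on chromosome 7 between 19035190 and 34687001. The bracketing lincRNAs of TCONS_00010996 were on chromosomes 10 and 11, so it was not placed. These brackets do not give the exons or the gene of a member.

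The 1 lincRNA left out, TCONS_00000540, lay on the unplaced sequence Zv9_NA427 from 23950 to 26227. It was at 36.8, 71.2, and 60.4 FPKM in embryonic heart, at 194, 188, and 191 FPKM in adult heart, and at 0.277, 0.371, and 0.154 FPKM in muscle. TCONS_00000543, a member, stood 3 identifiers after it and ran the other way between the hearts in adult hearts 1 and 2.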

How the data were processed

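RNA from embryonic heart, adult heart, and adult muscle (3 samples each) was sequenced as 50-bp paired-end reads. The authors aligned the reads to Zv9 with TopHat2 2.0.12, guided by Ensembl release 79, assembled transcripts with Cufflinks 2.2.1, and deposited FPKM values made with Cuffnorm, whose scaling option is not given in the sources used here. Cuffdiff, the authors' test, was not run because it starts from reads. Gene names, lengths, and sequences of the members were not used here.

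Hearts were compared with limma 3.58.1 in R 4.3.3 on log2(FPKM + 0.1) with an intensity trend, two-sided, over the 62279 transcripts with a mean above 0.1 FPKM in at least 1 heart tissue, with Benjamini-Hochberg adjustment over all of them. Fold changes on this scale understate those of low values. Muscle was left out of the fit because values near 0 vary on the log2 scale without bearing on the hearts. The fit was also run on simulated data, whose outcome is not given here, and no result above rests on it. Depth was estimated from steps between low values and covers counting error only. Other calculations used Python 3.11.15.

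Members, lists, and tests were chosen with earlier results of these data known. The transcripts named are the 5 highest in heart, the 5 largest and 5 smallest called fold changes, the 3 nearest to 0, the 5 highest at 0 in muscle, the 3 on each side of each limit, and the consecutive identifiers. Others were added where the text says so, or where a library changes a call. Alternatives were other pseudocounts, filters, scalings, thresholds, fits, and limits, a replicate block, and leaving out each sample. Counting 1 member per group of close identifiers, and leaving out members at 0 in muscle, were added after seeing the data.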

Additional observations from a re-analysis of the deposited data

How the results depend on the processing

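Leaving out 1 heart library at a time gave 22 to 27 adult-high members, 5 to 8 embryonic-high members, and a median log2 fold change of 0.66 to 0.77; over all transcripts it gave 3490 to 5926 adult-high and 2471 to 4471 embryonic-high calls, the lowest without adult heart 1. The number of members was 69 to 79 when any 1 of the 9 samples was left out. Leaving out a sample can only keep or add members, because the rule asks every sample to pass. Limits moved the number to 114 (heart above 5 FPKM), 32 (heart above 20), 32 (muscle below 0.1), 89 (muscle below 1), and 142 (limits on tissue means). Rescaling the 9 samples by their median ratios gave 65 members. Quantile normalization gave a median of 0.45. Embryonic-high members were 4 without the trend, 3 at an adjusted p below 0.01, and 5 without the 11 members at 0 in muscle. Without the trend, TCONS_00034723, TCONS_00036376, and TCONS_00066309 lost their adult-high calls as well (limma adjusted p = 0.0762, 0.0563, and 0.0605). An adjusted p below 0.01 left 2409 adult-high and 1969 embryonic-high calls over all transcripts, and a ratio above 4 left 9 and 2 members and 2953 embryonic-high calls over all transcripts. Where no count over all transcripts stands beside a count of members, no share is read from it. Both lincRNAs of a bracket were within 200 identifiers for 31 members. Deviations of same-numbered hearts correlated at r = 0.0437, 9.9e-05, and 0.0259, and those of differently numbered hearts at -0.0445 to 0.0233. Whether the numbers pair the samples is not given in the sources used here and cannot be told from these values. With the replicate block 23 of 24 adult-high and 7 of 8 embryonic-high members kept their call, and TCONS_00042714 gained one. Over all transcripts 3764 were adult-high with the block, in place of 6667. No called member among the 40 named changed sign. Signs changed in TCONS_00096655 (-0.33 without adult heart 0) and in these, all not called: TCONS_00071956 (-0.0225 with quantile normalization; -0.0825 to 0.172 with 1 library left out), TCONS_00011968 (-0.188 to 0.260), TCONS_00032973 (-0.150 to 0.0562), and TCONS_00072627 (-0.155 to 0.764). Without the filter on low values TCONS_00030513 and TCONS_00034723 lost their calls (adjusted p = 0.18 and 0.0899), and in a fit of the 3 tissue types TCONS_00006648 did (adjusted p = 0.201). The cause of these changes was not tested. Of 720 values for 40 named members, 665 kept direction and call, 37 lost the call, 11 gained it, and 7 changed sign. Muscle values near 0.5 FPKM rest on about 10.5 to 13.95 fragments per kb, which limits how finely absence can be read.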
